A study of Mus musculus with 38 samples.

Results

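The DNA replication genes described here are 50 protein-coding genes that copy the genome or prepare for copying. They were chosen by name: 11 genes of origin licensing, 6 of helicase activation, 9 of the polymerases and primase, 10 of the clamp, its loader and lagging-strand processing, 5 of nucleotide supply, 4 of chromatin duplication, 3 that drive entry into S phase, and 2 of fork protection. Each of the 4 deposited tables listed 49585 genes, and all 50 members were present once in each. Genes with a mean under 10 in a table were set aside. This kept 19450 genes for knockout skin, 18311 for P95H skin, 17744 for sorted knockout cells and 14914 for the DMBA/TPA cells, and all 50 members stayed in every table.

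The study followed mouse back skin after deletion or mutation of Srsf2, which encodes a splicing factor of the SR protein family, and its title concerns genome integrity during cell division. Mice labelled knockout carried Krt14-CreER, a tamoxifen-activated recombinase driven by a promoter of basal keratinocytes, with the Srsf2 knockout allele, and were treated topically with 4-hydroxy tamoxifen on alternate days for 4, 10 or 12 days (n = 3 each). Their 3 controls had the same Srsf2 allele entry and treatment without Cre: replicates 1 and 2 were treated for 12 days and replicate 3 for 10 days, and the mice of this set carried none, 1 or 2 tdTomato reporter alleles. The P95H set, with wild-type tdTomato, held mice labelled with the mutant allele and Cre after 12 days (n = 2) or 28 days (n = 4) of the same topical treatment, and Cre-negative controls at 12 days (n = 5) and 28 days (n = 3, numbered 1, 2 and 4). Reporter-positive cells were sorted from back skin of 3 control and 3 knockout mice after 10 days, and from 3 control and 3 heterozygous P95H mice at 20 weeks, after 3 tamoxifen injections and DMBA/TPA, a chemical protocol in which a mutagen and a tumour promoter are applied to the skin. For the sorted controls the labels used here name no Cre status. The labels give each library as a biological replicate of 1 mouse, so p-values measure the spread between these mice, and the labels used here name no ages.

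DNA is copied once per division. In the G1 phase the origin recognition complex, with CDC6 and CDT1, loads rings of MCM2 to MCM7 onto origins; in S phase CDC45, MCM10 and the GINS complex turn each ring into a working helicase, and polymerases, the sliding clamp PCNA and its loader RFC follow it. Many of these genes are switched on together at the end of G1 by E2F transcription factors, so their transcripts together mark a tissue with cells entering S phase. In back skin such cells sit mainly in the basal epidermis and in the matrix of growing hair follicles.

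The RefSeq promoter windows (GRCm38.p6, 250 bases before to 50 bases after each start) covered 40 of the 50 members. Because E2F factors are the textbook regulators of this group, 4 E2F-type words were searched on both strands: TTTGGCGC, TTTCCCGC, TTTGCCGC and TTTCGCGC, each of which can overlap the reverse complement of another. A word was found in 16 of the 48 windows of the members (33.3%). The like counts were 744 of 32851 windows of all genes (2.26%) and 4 of 45 windows of a list of mitosis genes (8.89%). The 16 members were Cdc6, Cdt1, Dnmt1, Gins3, Lig1, Mcm3, Mcm5, Mcm6, Mcm7, Orc1, Pola1, Pold1, Pold3, Pole2, Rfc3 and Uhrf1. Below are the 170 bases before the start of Mcm5 and Mcm6, 2 subunits of the MCM ring whose transcripts rose at 10 days of knockout, and of Pola1, the catalytic subunit of DNA polymerase alpha, which did not pass there; capitals mark the words. These genes were picked by hand, and all bear a word. Pola1 also lay above all controls at 10 days without overlap, and it passed in a fit of the values as deposited. Mcm5 lies at chr8:75109339-75109508 on the plus strand, Mcm6 at chr1:128359706-128359875 on the minus strand and Pola1 at chrX:93632156-93632325 on the minus strand.
Mcm5: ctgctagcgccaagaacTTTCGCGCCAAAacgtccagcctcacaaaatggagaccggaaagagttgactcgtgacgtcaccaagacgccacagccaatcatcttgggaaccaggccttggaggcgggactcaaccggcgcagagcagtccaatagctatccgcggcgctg
Mcm6: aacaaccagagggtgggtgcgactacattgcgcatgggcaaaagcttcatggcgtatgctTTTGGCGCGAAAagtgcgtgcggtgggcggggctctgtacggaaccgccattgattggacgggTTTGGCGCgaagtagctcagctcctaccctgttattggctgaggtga
Pola1: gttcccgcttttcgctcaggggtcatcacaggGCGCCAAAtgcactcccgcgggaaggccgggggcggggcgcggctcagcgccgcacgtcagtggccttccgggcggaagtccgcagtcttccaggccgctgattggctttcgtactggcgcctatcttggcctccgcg
In the Mcm5 stretch 2 words on opposite strands overlap, starting 153 and 149 bases before the start. Mcm6 has such an overlapping pair 110 and 106 bases before the start and another word at 47 bases. These matches are a description of letters, not of bound factors. Of the members with a window, 13 of the 33 that rose at 10 days of knockout had a word, and so did 3 of the 7 that did not pass.

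**Figure D1:**
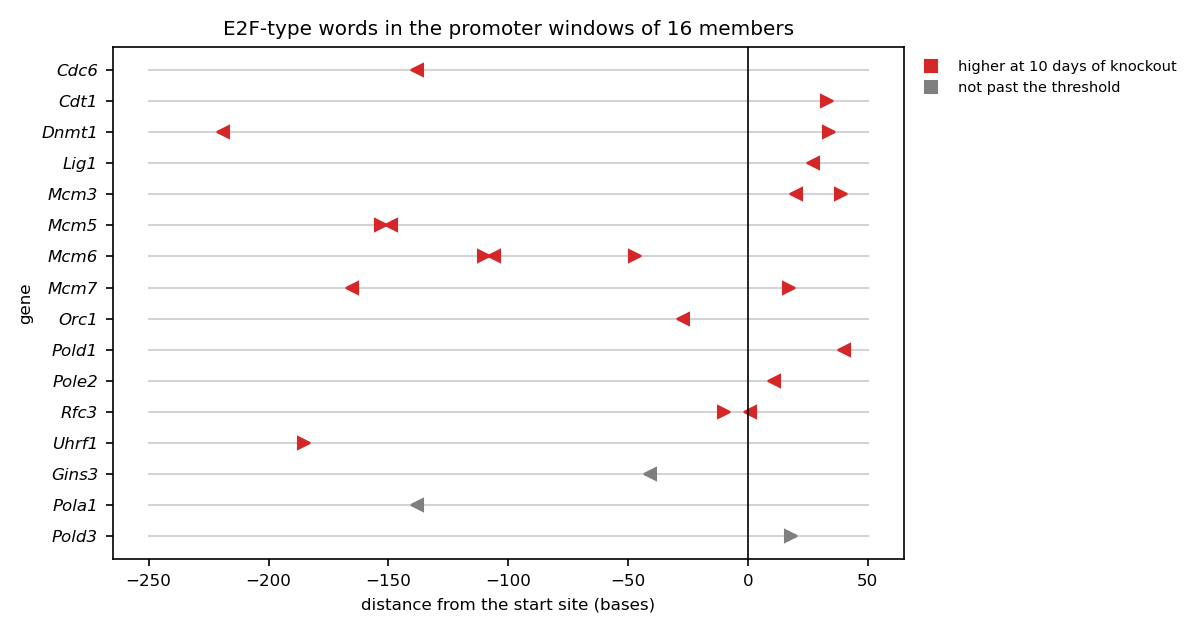
Position of each E2F-type word in the windows of the 16 members that have one, in bases from the RefSeq start (x axis, 250 before to 50 after), 1 member per line; triangles point right for a word on the gene's strand and left for the other strand, in red for members that rose at 10 days of knockout and grey for those that did not pass. The words of Mcm5 lie 153 and 149 bases before the start and those of Mcm6 at 110, 106 and 47 bases, while other members have theirs on both sides of the start.

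Estimated depth was 25.0 to 36.8 M reads per library in knockout skin and 7.39 to 32.3 M in P95H skin, and 45.9 to 92.8 M and 10.98 to 17.2 M in the sorted sets. The whole-skin estimates rest on an assumption about how the deposited values were scaled, given with the processing below. Values are given below as steps in whole skin (whole multiples of the smallest unit in a library of the deposited normalised counts) and as deposited normalised counts in sorted cells; differences are on the log2(value + 1) scale with their standard error (SE). "Passed", "rose" and "fell" mean an adjusted p under 0.05 over all genes of the table in limma. Srsf2 did not show the deletion in whole skin: it lay at 2879 to 2996 steps in controls and at 2303 to 3687 in all 9 libraries labelled knockout, and no day passed against control, so the skin is called skin labelled knockout. It was higher at 10 than at 4 days (log2 difference 0.30, adjusted p = 0.0323). In sorted cells Srsf2 fell from 17560.3 to 20595 in controls to 1900 to 3659 in knockout cells (log2 difference -2.71, adjusted p = 0.043). Sorted knockout replicate 2 stood apart, with 52.2% of its signal in the single gene Gm26917 against 9.13% to 10.4% in the other 5 sorted libraries of that set. In bulk samples a change in the number of dividing cells and a change in RNA per cell cannot be told apart.

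At 10 days of treatment, the replication genes were higher in skin labelled knockout than in controls across almost the whole copying machinery. Of 50 members, 40 rose and 0 fell, where 25.3% of all genes passed and 13.3% rose. The median log2 difference over the members was 0.81, against -0.02 over all 19450 genes, and 49 of the 50 differences were above 0. For 45 members all 3 libraries lay above all 3 controls, a separation found for 22% of all genes. The controls themselves were uneven: replicate 3, the only control treated for 10 days, was the highest control for 46 members (35.8% of all genes), and it still lay below all 10-day libraries for those 45 members.

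**Figure D2:**
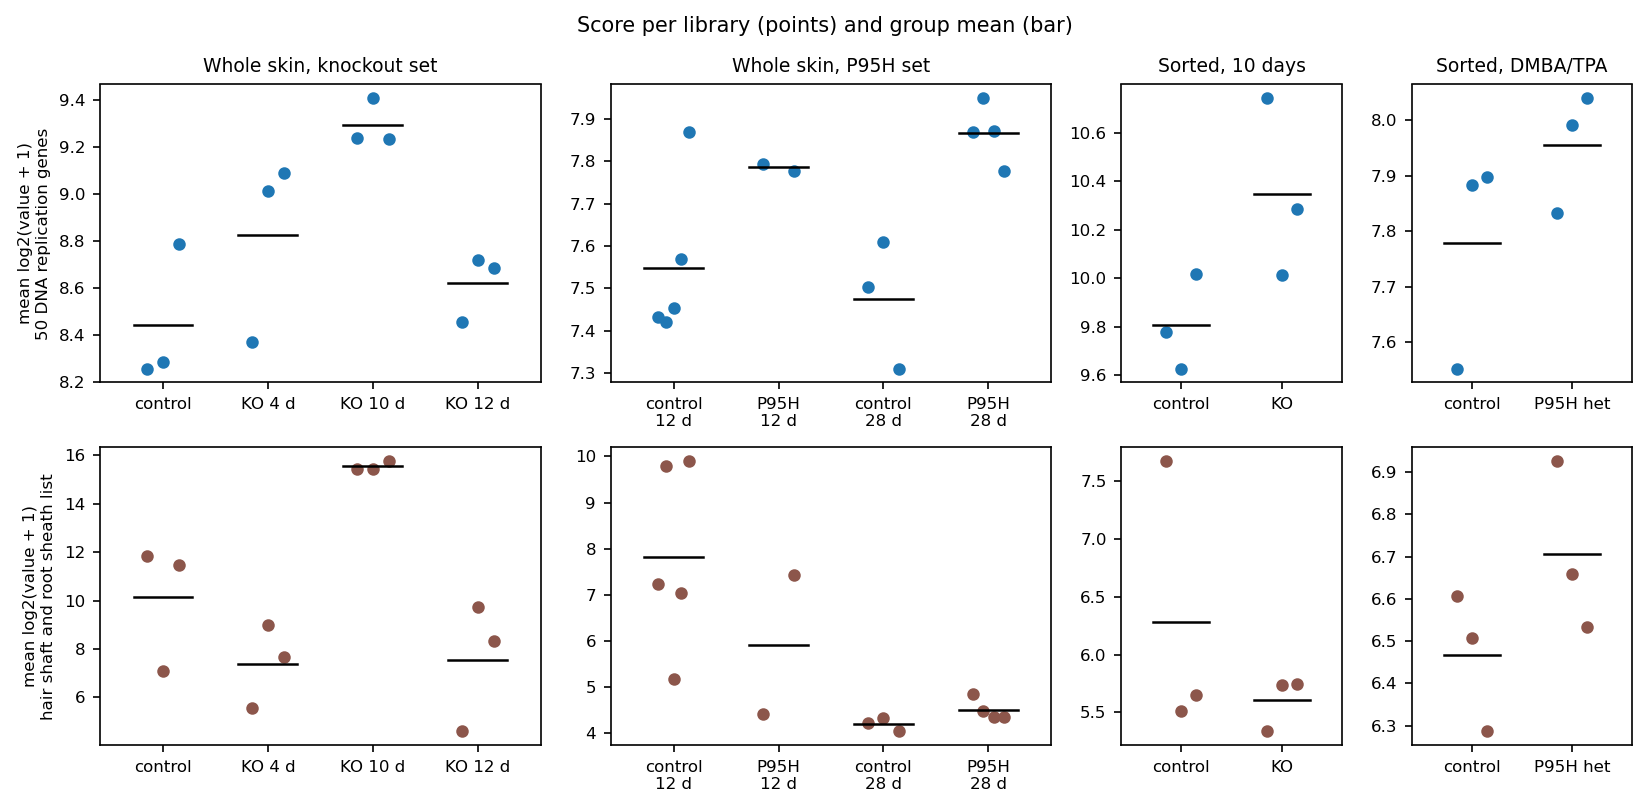
Mean log2(value + 1) of the 50 members (upper panels) and of the hair shaft and inner root sheath list (lower panels; 25 genes in whole skin) in each library, by group; points are libraries, bars are group means and KO is knockout. In knockout skin the 10-day libraries have member scores of 9.23 to 9.41 against 8.25 to 8.79 in controls, and their hair scores of 15.44 to 15.78 lie above every other whole-skin library.

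All 11 licensing genes rose, with a median log2 difference of 1.09. Orc1, the largest subunit of the origin recognition complex, was at 33, 34 and 53 steps in control replicates 1 to 3 and at 146, 164 and 134 steps at 10 days. The groups did not overlap, and the log2 difference of 1.89 (SE 0.25, adjusted p = 0.00271), or 3.71-fold, had the smallest p of the 50 members. Mcm7, an MCM ring subunit, was at 1195, 1269 and 1674 steps in controls and at 2490, 2853 and 2344 steps at 10 days (log2 difference 0.90, SE 0.18, adjusted p = 0.00763). The other ring subunits also rose, by 1.36 for Mcm2, 1.17 for Mcm3, 1.03 for Mcm4, 1.65 for Mcm5 and 0.88 for Mcm6 on the log2 scale. The loading factors Cdc6 and Cdt1 rose by 1.09 and 1.11, the small origin recognition subunit Orc6 by 0.58, and Gmnn, which encodes geminin, the inhibitor of CDT1 that prevents a second round of licensing, by 0.92. The activator and the brake of ring loading thus moved in the same direction.

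Among the 6 helicase activation genes 4 rose, with a median of 0.87. Cdc45, which joins the ring to form the active helicase, was at 165, 174 and 272 steps in controls and at 392, 396 and 416 steps at 10 days (log2 difference 1.01, SE 0.24, adjusted p = 0.0145). Mcm10, needed to start unwinding, was at 116, 103 and 272 steps in controls and at 487, 563 and 422 steps at 10 days, 3.27-fold higher (log2 difference 1.71, SE 0.41, adjusted p = 0.015). The GINS subunits, which form 1 complex, were split. Gins1 and Gins2 rose, by 1.24 and 0.74, while Gins3 and Gins4 did not pass, with log2 differences of -0.12 (SE 0.23) and 0.14 (SE 0.12). Gins3 was the member with a difference below 0: controls stood at 177, 114 and 151 steps and the 10-day libraries at 146, 160 and 101 steps, overlapping throughout.

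For the polymerases and primase, 6 of 9 genes rose, with a lower median of 0.56. Pole, the catalytic subunit of the leading-strand polymerase epsilon, was at 644, 646 and 1077 steps in controls and at 1676, 1808 and 1455 steps at 10 days (log2 difference 1.10, SE 0.27, adjusted p = 0.0173). Pola2, the second subunit of the priming polymerase alpha, was at 457, 557 and 658 steps in controls and at 751, 895 and 802 steps at 10 days (log2 difference 0.56, SE 0.16, adjusted p = 0.0306). Pole2, Prim1, Pold1 and Pold2 rose by 0.58, 0.64, 0.66 and 0.49. Pola1, unlike the catalytic genes Pole and Pold1, did not pass: it was at 492, 361 and 521 steps in controls and at 619, 609 and 687 steps at 10 days, without overlap (log2 difference 0.49, SE 0.22, adjusted p = 0.119). The primase subunit Prim2 (0.44, adjusted p = 0.119) and the delta subunit Pold3 (0.12, adjusted p = 0.443) did not pass either.

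Clamp, loader and lagging-strand genes rose in 7 of 10 cases, with a median of 0.67. Lig1, the ligase that joins Okazaki fragments, was at 574, 620 and 882 steps in controls and at 1206, 1531 and 1174 steps at 10 days (log2 difference 0.93, SE 0.21, adjusted p = 0.0132). Pcna, the sliding clamp, was at 614, 592 and 852 steps in controls and at 1225, 1124 and 1157 steps at 10 days (log2 difference 0.79, SE 0.19, adjusted p = 0.0151). Pcna has pseudogene copies in the table, and how reads shared with them were counted is not stated in the labels used here. Fen1, the nuclease that trims Okazaki fragments, rose by 1.12, and the single-strand binding subunits Rpa2 and Rpa3 by 0.53 and 0.76. The loader was mixed: Rfc3 and Rfc4 rose by 0.42 and 0.75, while Rfc1, Rfc2 and Rfc5 did not pass (0.08, 0.49 and 0.60, adjusted p = 0.675, 0.0765 and 0.07). Rfc1, the large loader subunit, had one of the smallest differences of all members.

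In nucleotide supply 4 of 5 genes rose, with a median of 0.99. Dut, which removes dUTP from the nucleotide pool, was at 259, 261 and 366 steps in controls and at 521, 624 and 598 steps at 10 days (log2 difference 0.99, SE 0.19, adjusted p = 0.00699). Rrm2, the S-phase subunit of ribonucleotide reductase, was at 420, 260 and 603 steps in controls and at 1102, 1323 and 1092 steps at 10 days (log2 difference 1.53, SE 0.33, adjusted p = 0.0104). Its partner Rrm1 rose by 0.77 and the thymidine kinase Tk1 by 1.35, while Tyms, thymidylate synthase, did not pass (0.54, SE 0.21, adjusted p = 0.0796) although its groups did not overlap.

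All 4 chromatin duplication genes rose, with a median of 1.03. Uhrf1, which recruits the maintenance methyltransferase to new DNA, was at 800, 793 and 1623 steps in controls and at 3233, 4246 and 3185 steps at 10 days, 3.49-fold higher (log2 difference 1.80, SE 0.38, adjusted p = 0.0103). Chaf1b, a subunit of the histone chaperone CAF-1, was at 258, 236 and 397 steps in controls and at 552, 706 and 567 steps at 10 days (log2 difference 1.06, SE 0.26, adjusted p = 0.0163). Its partner Chaf1a rose by 1.01. Dnmt1, the maintenance methyltransferase itself, rose less, by 0.46. Both fork protection genes, whose products travel together with the fork, rose: Tipin was at 172, 153 and 177 steps in controls and at 264, 231 and 274 steps at 10 days (log2 difference 0.61, SE 0.16, adjusted p = 0.0217), and Timeless at 414, 703 and 749 steps and at 984, 1324 and 930 steps (log2 difference 0.82, SE 0.27, adjusted p = 0.0426).

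Among the S-phase entry genes the cyclins and E2f1 parted. Ccne2, which encodes cyclin E2, was at 43, 51 and 50 steps in controls and at 111, 88 and 112 steps at 10 days (log2 difference 1.09, SE 0.28, adjusted p = 0.0199). Ccne1, cyclin E1, was at 48, 71 and 129 steps in controls and at 202, 278 and 157 steps at 10 days (log2 difference 1.43, SE 0.42, adjusted p = 0.0297). E2f1, an activating E2F factor, was at 224, 290 and 358 steps in controls and at 298, 406 and 337 steps at 10 days. Its groups overlapped and it did not pass (log2 difference 0.27, SE 0.20, adjusted p = 0.354). In a wider list of 54 other replication genes 30 rose and the median was 0.52; by smallest p they were led by the E2F family member E2f2 (1.37, SE 0.26, adjusted p = 0.00742), Dtl, which marks CDT1 for destruction (1.67, SE 0.33, adjusted p = 0.00793), the origin firing factor Ticrr (1.71, SE 0.37, adjusted p = 0.0108) and the repressor E2f8 (1.07, SE 0.23, adjusted p = 0.0111). Of 51 mitosis genes 36 rose, with a median of 1.07.

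**Figure D3:**
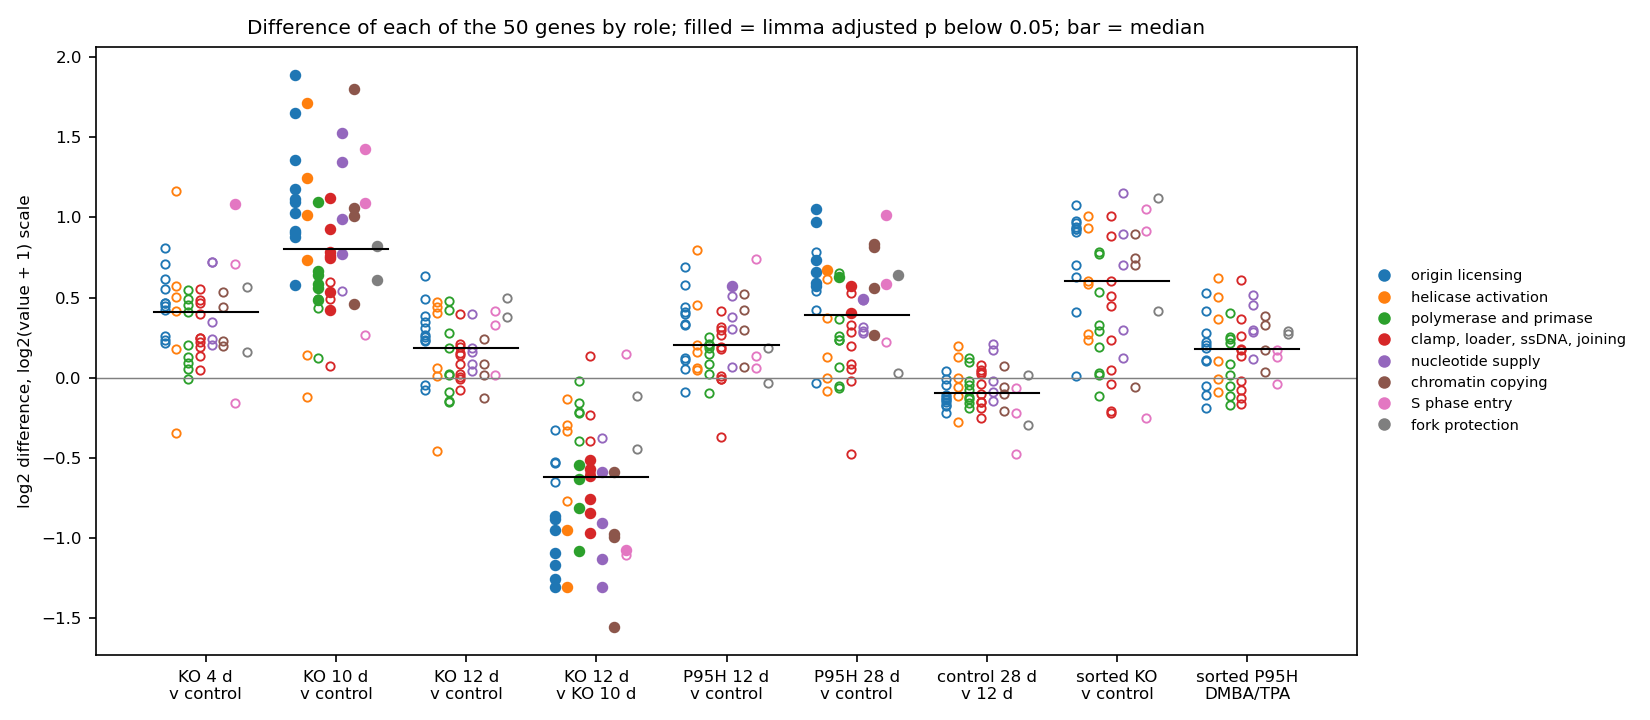
Log2 difference of each of the 50 members (points, grouped and coloured by role) in 9 comparisons (KO, knockout); filled points passed limma's test at an adjusted p under 0.05 and the bar is the median over members. At 10 days of knockout 40 points are filled and the median is 0.81, at 12 days against 10 days the median is -0.62, and at 28 days of P95H 18 points are filled around a median of 0.39.

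Markers of other structures moved with this result. Of 25 genes of the hair shaft and inner root sheath 23 rose at 10 days, with a median log2 difference of 6.66 and a summed level of 4728640 to 6273710 steps against 10671 to 255163 in controls; no gene of the list was undetected. All 8 melanocyte markers rose, and 7 of 9 wound keratinocyte markers rose. In control replicates 1 to 3 the hair scores were 11.85, 7.08 and 11.48 and the member scores 8.25, 8.28 and 8.79. The part of hair growth in the rise of the replication genes was not tested in these samples. The count also rested on few libraries: leaving out control replicate 2, control replicate 1, or 10-day replicate 2, 3 or 1 left 5, 20, 13, 23 and 25 members, and Dut, Orc1, Mcm7, Rrm2 and Uhrf1 passed in all 6 such fits. With equal library totals, under which the median of all genes moved to -0.34, 17 members passed, all higher, and 49 of 50 members lay above the median gene.

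**Figure D4:**
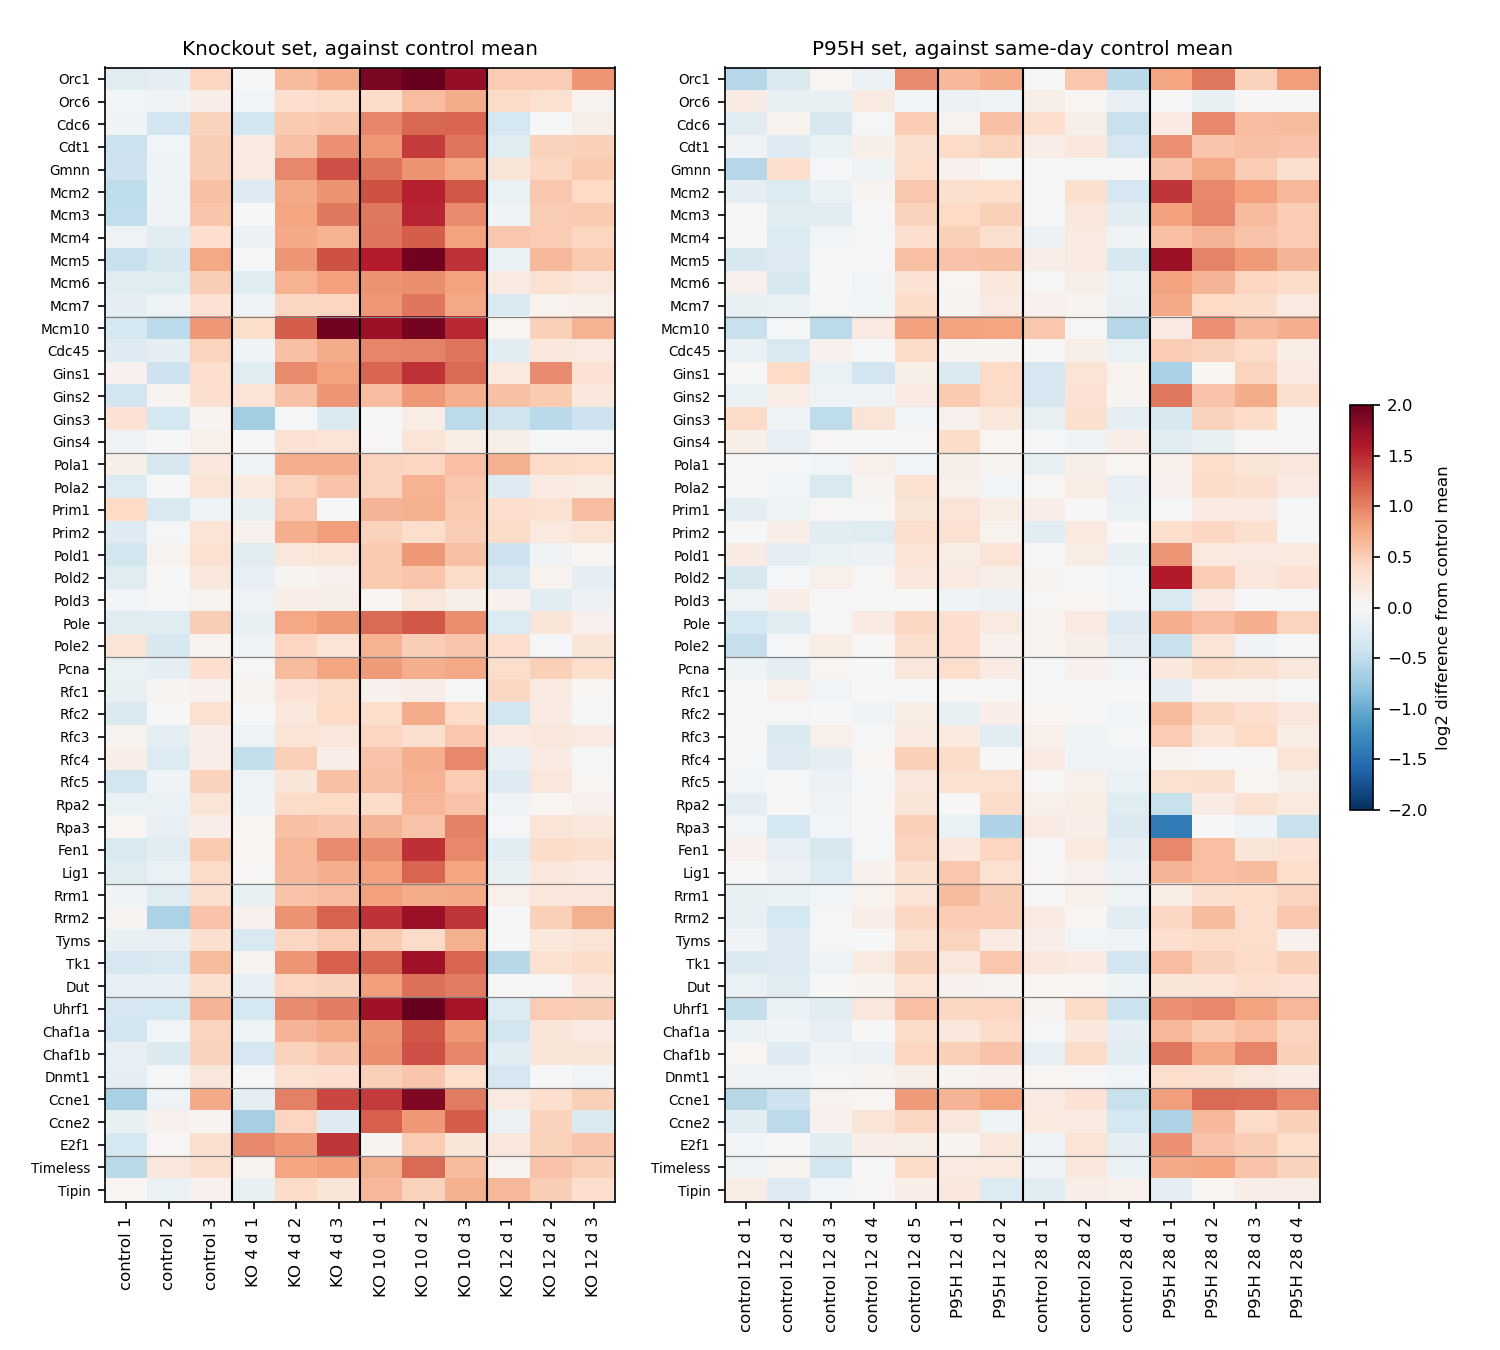
Level of each of the 50 members in each whole-skin library as the log2 difference (colour) from the control mean, which for the P95H set is that of the same day, with members ordered by role and KO standing for skin labelled knockout. The 3 libraries of 10 days of knockout are high in nearly every line, control replicate 3 is the highest control for 46 members, and 4-day replicate 1 is the lowest of its group for 49.

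No control was treated for 4 days, so at this day the knockout label and the length of treatment cannot be told apart. At 4 days E2f1 was the member that passed. It was at 224, 290 and 358 steps in controls and at 557, 521 and 771 steps at 4 days, 2.12-fold higher (log2 difference 1.09, SE 0.20, adjusted p = 0.0103), and all 3 libraries lay above all controls. This was 1 of 50 members, where 11.3% of all genes passed; 8 members, all higher, had an unadjusted p under 0.05 in limma, against 26.8% of all genes. The median over the members was 0.41 and 47 differences were above 0, but the 3 mice were spread widely. Replicate 1 was the lowest of its group for 49 of 50 members: Mcm5 stood at 824 steps there and at 1573 and 2057 steps in replicates 2 and 3, against 623, 679 and 1445 steps in controls, so the groups overlapped (log2 difference 0.71, SE 0.38, adjusted p = 0.255). Uhrf1 at 788, 1951 and 2047 steps showed the same split. Without replicate 1, 9 members passed (Prim2, Mcm6, Mcm10, Pcna, E2f1, Rrm1, Gmnn, Mcm4 and Pola1), without control replicate 3 there were 3, and without 4-day replicate 3 there were 0; with the values as deposited there were also 0.

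Of 51 mitosis genes 15 rose at this day, with a median of 0.91, against 1 of the 50 replication genes with a median of 0.41. Of the 54 other replication genes 3 rose, namely the deoxycytidine kinase gene Dck (log2 difference 0.99), the nuclease-helicase gene Dna2 (0.68) and the dNTP hydrolase gene Samhd1 (1.09). All 8 fibroblast markers rose, with a summed level of 1534420 to 3200000 steps against 357529 to 830278 in controls, and 9 of 12 macrophage and dendritic cell markers rose, while 4 of 25 hair genes fell with a median of -3.04. Their part in the E2f1 difference was not tested.

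Set directly against 4 days, 10 days of treatment gave a rise for 12 members and a fall for 1, where 40.3% of all genes passed, 18.9% higher and 21.4% lower. These 13 of 50 members are a smaller share than that of all genes, although the median over members was 0.48 against -0.03 over all genes. Orc1 went from 39, 61 and 67 steps to 146, 164 and 134 steps (log2 difference 1.43, SE 0.25, adjusted p = 0.0011), without overlap. Ccne2 went from 30, 65 and 40 steps to 111, 88 and 112 steps (log2 difference 1.25, SE 0.28, adjusted p = 0.00485). E2f1 ran the other way, from 557, 521 and 771 steps to 298, 406 and 337 steps (log2 difference -0.82, SE 0.20, adjusted p = 0.00808), and its 10-day libraries overlapped the controls. The others that rose were Dut, Mcm7, Uhrf1, Chaf1b, Cdc6, Mcm2, Pold1, Pold2, Rfc4 and Tipin, by 0.45 to 1.26. Mitosis genes rose in 1 of 51 cases between the same days, with a median of 0.09. All 25 hair genes rose (median 9.86, summed level 4630 to 35098 steps at 4 days and 4728640 to 6273710 at 10 days), as did all 8 melanocyte markers (median 5.14) and 4 of 9 wound keratinocyte markers. All 8 fibroblast markers fell (median -1.82), as did 9 of 12 macrophage and dendritic cell markers (median -1.94) and 5 of 6 endothelial markers; their part in the differences of the members was not tested. Without 4-day replicate 1 the count was 4, without 10-day replicate 2 it was 6 and without 10-day replicate 3 it was 8; it was 4 with equal totals (2 higher and 2 lower) and 37, all higher, with the values as deposited.

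At 12 days the median log2 difference over the members was 0.18. Limma called 0 of 50 members against control, where 1.28% of all genes passed; 3 members, Orc1, Tipin and Mcm4, had an unadjusted p under 0.05, all higher, against 19.7% of all genes. For 6 members (Pcna, Orc1, Rfc3, Tipin, Mcm4 and Pola1) all 12-day libraries lay above all controls, where 11.8% of all genes did so, and for Gins3 all lay below, as for 10.8% of all genes, at 110, 99 and 108 steps against 177, 114 and 151 steps. Tipin had the smallest p, at 266, 235 and 210 steps against 172, 153 and 177 steps in controls (log2 difference 0.50, SE 0.16, adjusted p = 0.135).

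From 10 to 12 days 28 members fell and 0 rose, where 37.6% of all genes passed and 18.3% fell. The median was -0.62, and for 40 members all 12-day libraries lay below all 10-day libraries, as for 24.7% of all genes. Mcm7 went from 2490, 2853 and 2344 steps to 1104, 1426 and 1462 steps (log2 difference -0.95, SE 0.18, adjusted p = 0.00231), and Orc1 from 146, 164 and 134 steps to 56, 56 and 73 steps (log2 difference -1.26, SE 0.25, adjusted p = 0.0033). For both genes the 12-day libraries lay below all 10-day libraries; Mcm7 overlapped the controls, and Orc1 lay above them. Cdc45 fell by 0.95 to 170, 231 and 226 steps and Mcm10 by 1.31 to 152, 207 and 240 steps. Among polymerases Pold2 went from 771, 785 and 703 steps to 432, 564 and 471 steps (log2 difference -0.63, SE 0.14, adjusted p = 0.0067) and Pold1 from 1143, 1447 and 1191 steps to 592, 754 and 811 steps (log2 difference -0.81, SE 0.20, adjusted p = 0.00828). Lig1 fell by 0.84 and Fen1 by 0.97; Dut went from 521, 624 and 598 steps to 297, 296 and 336 steps (log2 difference -0.90, SE 0.19, adjusted p = 0.00403), and Tk1 fell by 1.30.

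All 4 chromatin duplication genes fell in these 2 days. Uhrf1 went from 3233, 4246 and 3185 steps to 836, 1443 and 1419 steps (log2 difference -1.56, SE 0.38, adjusted p = 0.00946), and Dnmt1 fell by 0.59. Ccne2 fell by 1.07, to 44, 66 and 39 steps. Neither fork protection gene passed: Timeless had a log2 difference of -0.45 and Tipin of -0.12, and E2f1 stood at 0.15. In the wider list of 54 genes 28 fell and 1 rose, led by E2f2 (-1.79), the E2F family member E2f3 (-0.98), the helicase gene Recql4 (-1.51) and the cell cycle phosphatase gene Cdc25a (-0.64). Over the same interval all 25 hair genes fell, with a median of -9.50 to a summed level of 3560 to 45448 steps, all 8 melanocyte markers fell, 28 of 51 mitosis genes fell, and 7 of 8 fibroblast and 9 of 12 macrophage and dendritic cell markers rose; their part in the fall of the members was not tested. Srsf2 itself fell by 0.43 on the log2 scale (adjusted p = 0.0072). With equal totals, under which the median of all genes moved to 0.35, 9 members passed (8 lower, and Rfc1 higher). Leaving out 12-day replicate 1 left 12 members and leaving out 10-day replicate 2 left 14.

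**Figure D5:**
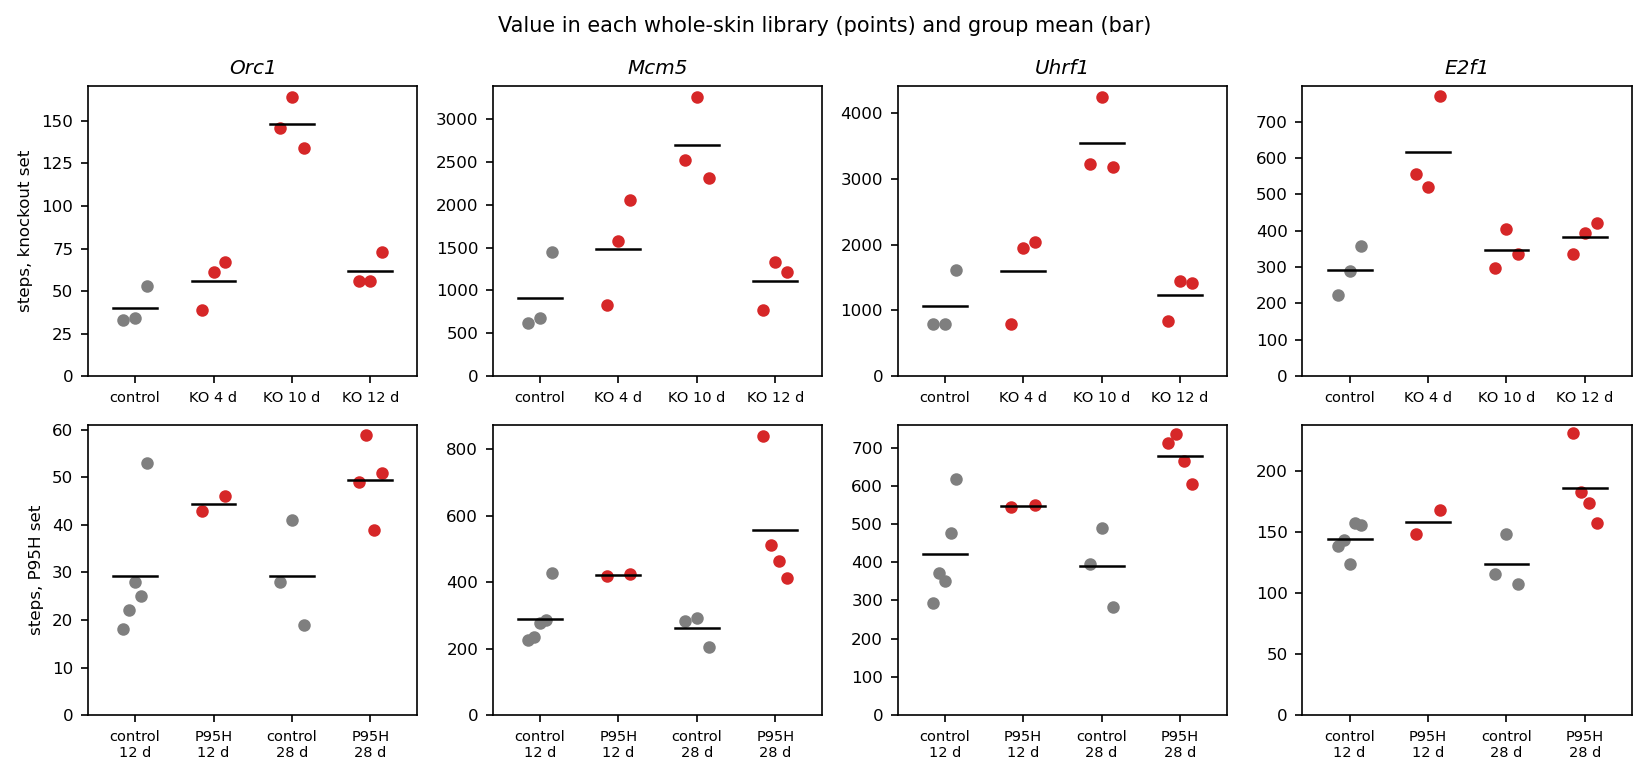
Steps per whole-skin library for Orc1, Mcm5, Uhrf1 and E2f1 in the knockout set (upper panels) and the P95H set (lower panels), with controls in grey; each point is 1 mouse and the bar is the group mean. Orc1, Mcm5 and Uhrf1 peak at 10 days of knockout, while E2f1 peaks at 4 days with 557, 521 and 771 steps and lies at 298 to 406 steps at 10 days.

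In P95H skin after 12 days 1 of 50 members passed, where 6.93% of all genes did. This was Rrm1, the large subunit of ribonucleotide reductase, at 704, 706, 749, 820 and 931 steps in the 5 controls and at 1212 and 1100 steps in the 2 P95H mice (log2 difference 0.57, SE 0.11, adjusted p = 0.00689). Both P95H libraries lay above all controls. The median over members was 0.20, with 44 differences above 0 and 14 of 50 unadjusted p-values under 0.05, against 22.3% of all genes. Control replicate 5 was the highest of its group for 41 of 50 members (31.3% of all genes), and without it 7 members passed: Mcm3, Pcna, Lig1, Ccne1, Rrm1, Rrm2 and Mcm4. Without P95H replicate 1 there were 0, in a fit that assumes the lone remaining P95H mouse to vary like the other groups, and with the values as deposited there were also 0. The median over the mitosis genes was 0.27, and 5 of 9 wound keratinocyte markers rose; the part of these in the Rrm1 difference was not tested.

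After 28 days of P95H, 18 members rose and 0 fell, where 12.2% of all genes passed and 6.7% rose. The median log2 difference over members was 0.39, against -0.01 over all 18311 genes, and for 29 members all 4 P95H libraries lay above all 3 controls, as for 14.5% of all genes. The rise was uneven over roles: 6 of 11 licensing and all 4 chromatin duplication genes passed, but 1 of 6 in helicase activation, 1 of 9 polymerase and primase genes, 2 of 10 clamp and lagging-strand genes and 1 of 5 nucleotide supply genes. Medians ran from 0.69 for chromatin duplication and 0.59 for licensing to 0.23 for the polymerases and primase. The difference between roles was not tested.

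In licensing, Mcm4 was at 329, 407 and 341 steps in control replicates 1, 2 and 4 and at 542, 573, 530 and 511 steps in P95H replicates 1 to 4 (log2 difference 0.59, SE 0.12, adjusted p = 0.00781). Mcm2 was at 245, 302 and 193 steps in controls and at 657, 473, 430 and 386 steps in P95H mice (log2 difference 0.97, SE 0.21, adjusted p = 0.00976). Neither overlapped its controls. Mcm5 had the largest difference of the 18, 2.08-fold (log2 difference 1.06, SE 0.24, adjusted p = 0.012), and Mcm3, Mcm6 and Cdt1 rose by 0.74, 0.57 and 0.66. Orc1, first at 10 days of knockout, did not pass (0.79, SE 0.32, adjusted p = 0.119). Gins2, a GINS subunit, was at 51, 79 and 67 steps in controls and at 136, 96, 109 and 81 steps in P95H mice (log2 difference 0.67, SE 0.18, adjusted p = 0.0299), and Pole at 285, 309 and 228 steps and at 449, 416, 451 and 369 steps (log2 difference 0.63, SE 0.16, adjusted p = 0.0227). No other GINS subunit passed,  with Gins3 at 0.13 and Gins4 at -0.08, neither passing.

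Lig1 was at 225, 233 and 204 steps in controls and at 355, 336, 343 and 281 steps in P95H mice (log2 difference 0.57, SE 0.13, adjusted p = 0.0131). Rfc2, a loader subunit, was at 287, 283 and 268 steps and at 435, 372, 353 and 328 steps (log2 difference 0.40, SE 0.10, adjusted p = 0.0222). Pcna did not pass (0.28, SE 0.09, adjusted p = 0.0623). In nucleotide supply Rrm2 was at 362, 332 and 280 steps in controls and at 430, 503, 414 and 472 steps in P95H mice (log2 difference 0.49, SE 0.15, adjusted p = 0.0455). Lig1, Rfc2 and Rrm2 each lay above all controls in all 4 P95H mice.

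Chaf1b was at 79, 115 and 76 steps in controls and at 184, 151, 174 and 123 steps in P95H mice (log2 difference 0.81, SE 0.19, adjusted p = 0.0149), and Chaf1a at 151, 179 and 136 steps and at 245, 222, 235 and 211 steps (log2 difference 0.56, SE 0.14, adjusted p = 0.0181). Chaf1a and Chaf1b therefore rose in both whole-skin sets. Uhrf1 rose by 0.83 and Dnmt1 by 0.27. E2f1 was at 116, 149 and 108 steps in controls and at 232, 183, 174 and 158 steps in P95H mice (log2 difference 0.58, SE 0.15, adjusted p = 0.0215), without overlap. Ccne1 was at 31, 34 and 20 steps and at 50, 62, 61 and 55 steps (log2 difference 1.01, SE 0.28, adjusted p = 0.0325), and Timeless at 133, 164 and 129 steps and at 239, 244, 211 and 194 steps (log2 difference 0.64, SE 0.15, adjusted p = 0.016). In the wider list 4 of 54 genes rose: the E2F partner Tfdp1 (0.37), the histone chaperone gene Asf1b (0.65), the remodeller gene Hells (0.71) and the fork factor gene Wdhd1 (0.51). Rrm2b, the ribonucleotide reductase subunit induced by p53, fell by 0.41.

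Of the hair genes 0 of 25 rose and 1 fell in limma, with a median of 0.15. Their scores were slightly higher without overlap, at 4.35 to 4.85 in P95H mice and 4.04 to 4.33 in controls. Their summed levels leaned the other way, at 5920 to 6746 steps in P95H mice and 6730 to 8406 steps in controls. Among wound keratinocyte markers 7 of 9 were higher, with a summed level of 18720 to 43275 against 5904 to 10476 steps. Mitosis genes rose in 4 of 51 cases, where 6.7% of all genes rose. Their scores were 7.96, 8.21, 8.10 and 8.21 in P95H replicates 1 to 4. In control replicates 1, 2 and 4 they were 8.04, 7.90 and 7.63. The part of these lists in the rise of the members was not tested. Without control replicate 4, the lowest 28-day control for 40 members, 1 member (Mcm4) passed, without control replicate 1 there were 7 and without P95H replicate 2 there were 11. With the values as deposited, under which the median of all genes moved to 0.59, 5 members passed.

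Whether the P95H effect grew from 12 to 28 days was tested as the difference of the differences. Limma called 0 of 50 members, where 0.0109% of all genes passed, and 2 members (Mcm6 and Rfc2), both with a larger effect at 28 days, had an unadjusted p under 0.05, against 8.21% of all genes. The median over members was 0.18. Control skin at 28 days did not differ from control skin at 12 days in any member in limma (0 of 50, where 0.00546% of all genes passed; 1 unadjusted p under 0.05, for a lower value, against 11.7% of all genes). Its hair genes had a median difference of -4.29.

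The 10-day knockout and 28-day P95H comparisons share no library, and they differ in kit and treatment length. They had 16 rising members in common, which was 40% of the 40 at 10 days of knockout and 88.9% of the 18 at 28 days of P95H; E2f1 and Rfc2 were the other 2 of the 18. The share of 88.9% is to be read beside the 80% of all 50 members that rose at 10 days of knockout. Over the 17986 genes tested in both, 12.6% rose at 10 days of knockout, and 486 of the 1219 that rose at 28 days of P95H (39.9%) were among them. Across the 50 members, which share libraries and so are not independent, the log2 differences of the 2 comparisons had a Pearson r of 0.64 and a Spearman rho of 0.63, beside 0.44 and 0.49 over 17986 genes tested in both. Uhrf1, Mcm5 and Ccne1 were among the larger differences in both, and Rfc1, Pold3, Gins3 and Gins4 stayed within 0.14 of 0 in both.

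In reporter-positive cells sorted after 10 days, the basal keratinocyte markers summed to 1225740 or more in every library, and endothelial markers to 61.6 to 76.0, with Cdh5 at 0. Wound keratinocyte markers had a median log2 difference of 3.47, with 8 of 9 above 0, 4 of 9 higher without overlap and a summed level of 162227 to 546929 against 137670 to 211139 in controls. The 9 mitochondrially encoded genes had a median of -0.77, with a summed level of 88417 to 475583 against 372342 to 478493. The low end was knockout replicate 2, the library with 52.2% of its signal in Gm26917. There mt-Co1 was at 42412, against 303088 and 261385 in knockout replicates 1 and 3 and 233586 to 284537 in controls. The part of both lists in the values of the members was not tested. No member passed in limma (0 of 50, where 0.0394% of all genes passed), but 18 had an unadjusted p under 0.05, all higher, against 17.2% of all genes. The median over members was 0.60 against -0.04 over all genes, and for 21 members all knockout libraries lay above all controls, as for 12.8% of all genes. EdgeR's quasi-likelihood test on the recovered reads called 0 members, where 0.0169% of all genes passed, with 22 unadjusted p-values under 0.05 against 18.1% of all genes. DESeq2 called 7 of the 50, where 7.08% of all genes passed: Dut, Rpa2, Mcm7, Timeless, Gmnn, Chaf1a and Fen1. The values of 3 of these, chosen after they were seen, show the spread.

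Mcm7 was at 2909, 2895 and 3229 in controls and at 6017, 6859 and 4557 in knockout cells (log2 difference 0.93, SE 0.21, adjusted p = 0.143 in limma). Dut was at 829.1, 733.3 and 841.5 in controls and at 1609, 2753 and 1272 in knockout cells (log2 difference 1.15, SE 0.30, adjusted p = 0.17). Timeless was at 605.2, 467.3 and 702.1 in controls and at 1577, 1377 and 939.7 in knockout cells (log2 difference 1.12, SE 0.28, adjusted p = 0.161). None of the 3 overlapped. Other members that led in whole skin did overlap: Orc1 was at 133.9, 92.51 and 201.8 in controls and at 554.9, 140.4 and 305.4 in knockout cells, and Uhrf1 at 2602, 2100 and 3738 and at 6803, 2976 and 4334. For both, knockout replicate 1 was highest and replicate 2, the library apart, was lowest of its group, as it was for 34 of 50 members (45.6% of all genes); without replicate 2 the median over members was 0.68 and 0 passed, and without replicate 1 it was 0.37. With equal totals the median over members was 0.26, with the median of all genes at -0.39, and 0.57 when Gm26917 was left out of the totals. Mitosis genes had a median of 0.11 in these cells.

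After DMBA/TPA, sorted heterozygous P95H cells gave 0 of 50 members in limma, in edgeR's quasi-likelihood test and in DESeq2, where 0%, 0.00671% and 2.27% of all genes passed; 12 of 50 members had an unadjusted p under 0.05 in limma, all higher, against 15.9% of all genes. EdgeR gave 10 of 50 against 15.8% of all genes, and DESeq2 gave 6 of 50 against 13.0%. In the sorted controls, replicate 1 was the lowest of its group for 44 of 50 members (32.8% of all genes). The median over members was 0.18, and it ran from 0.06 to 0.26 when 1 library was left out. For 11 of 50 members (22%) all P95H libraries lay above all controls, as for 11% of all genes. Lig1, at 359.1, 456.6 and 417.1 in controls and at 541.1, 534.5 and 508.1 in P95H cells, had the smallest p among those (log2 difference 0.37, SE 0.11, adjusted p = 0.191), and Mcm5 was at 403, 541 and 538.6 and at 617.5, 659 and 686.3 (log2 difference 0.42, SE 0.13, adjusted p = 0.191). Cdt1 and Pola1 lay lower without overlap, as did 10.5% of all genes, Cdt1 at 309.9, 321.1 and 316.3 in controls and at 267.5, 255.1 and 309.3 in P95H cells (log2 difference -0.19, SE 0.11, adjusted p = 0.432).

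Over the 7 comparisons with a control, some of which share controls, 23 members had a difference above 0 in all 7 and 15 in 6. Orc6 and Rfc3 were above 0 in 4, and Gins3 and Pold3 in 3.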

How the data were processed

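RNA-seq libraries of 38 mouse samples were analysed, 26 of whole back skin and 12 of sorted cells. Per the labels' protocols, total RNA was extracted with Trizol and the kits were TruSeq Stranded Total RNA Gold for the knockout set and, for the P95H set, a stranded kit with Ribo-Zero Plus. The submitters' processing notes name STAR, featureCounts and DESeq2; versions and a genome build were not given in the sources used here. Per the labels' table names, the deposited signal is a normalised count per gene made by the authors. Each value was a whole multiple of 1 step per library (100% of values, tolerance 0.0001). In sorted tables steps were taken as reads. In whole-skin tables undetected genes sat at 1 step. Whole-skin depth was estimated as the total in steps divided by the step. This assumes that the scaling by the step was applied again to values already scaled by it, which was not checked. Totals in steps were 16.1 to 17.4 M in P95H-set libraries. In the knockout set they were 35.5 to 37.5 M at 10 days and 28.5 to 32.1 M otherwise, so the totals were not even. The hair list alone held 4728640 to 6273710 of these steps at 10 days, against 10671 to 255163 in controls. Totals as deposited were spread more widely, at 8.04 to 40.9 M in the P95H set and 23.4 to 52.6 M in the knockout set. The steps themselves were analysed, and the values as deposited were an alternative. How the authors made the whole-skin values is not known from these sources, and the choice matters: 18 members passed at 28 days of P95H with steps and 5 with the values as deposited.

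Genes with a mean of at least 10 in a table were tested with limma 3.58.1 in R 4.3.3 on log2(value + 1), with a mean-variance trend, all groups of a table in 1 fit, two-sided, and Benjamini-Hochberg adjustment over all genes at 0.05. Alternatives were equal library totals, a pseudocount of 10, no filter on low values, a fit of the compared groups only, a replicate block, leaving out each replicate, and for sorted reads edgeR 4.0.16 (quasi-likelihood) and DESeq2 1.42.0. Equal totals without Gm26917 were added after seeing the data. Differences understate changes of low genes. On simulated data the fit recovered 57% of 2-fold and 88% of 4-fold changes at 10 days of knockout among 19450 genes, and 6% and 34% in sorted knockout cells among 17744. Each simulation changed 200 genes and drew genes independently, whereas 4913 genes passed at 10 days of knockout. The shares recovered therefore need not hold for the real data.

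All 50 members could be named; values per library went to the 2 with the smallest p in each role among those that passed, and to any that passed against the direction of most. Of the other replication genes at most 4 per comparison were named. The members and lists were chosen with earlier results of these data known. Promoter windows came from RefSeq (GRCm38.p6).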

Additional observations from a re-analysis of the deposited data

Results flagged for a closer look

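Groups of 4 or 5 libraries were control skin at 12 days and P95H skin at 28 days, with 102 tests in all. These covered each member and the mean score of the members, and they are not independent because members share libraries. The count is therefore not set against chance. In 11 tests a library lay far from the rest of its group for a member. In control skin at 12 days this was replicate 5 each time, above the others: Orc1 at 53 steps (others 18 to 28), Rfc5 at 225 (178 to 191), Rfc2 at 369 (315 to 330), Mcm7 at 751 (523 to 571) and Chaf1a at 234 (159 to 177). In P95H skin at 28 days, replicate 1 was far above the others for Pold1 (518, others 317 to 322), Cdt1 (242, others 188 to 191) and Pold2 (541, others 208 to 254). This library had the lowest depth estimate, 7.39 M reads, which rests on the assumed scaling of the deposited values. Replicate 2 was low for Orc6 (178, others 197 to 199), and replicate 4 was low for Tyms (336, others 400 to 411) and high for Rfc4 (89, others 75 to 77).

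Between days of knockout, 13 members differed between 4 and 10 days and 28 between 10 and 12 days in limma's test of the difference, where 40.3% and 37.6% of all genes passed; the 13 are a smaller share than that of all genes. E2f1 ran against the other 12 from 4 to 10 days, with a log2 difference of -0.82.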

How the results depend on the processing

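No member that passed changed sign under any alternative run. With the values as deposited the counts of members passing were 0 at 4 days of knockout, 37 for 10 against 4 days, 0 at 12 days of P95H and 5 at 28 days of P95H. With equal totals they were 17 at 10 days, 4 for 10 against 4 days and 9 for 12 against 10 days. Without the filter on low values, which adds many low genes to the trend and the adjustment, they were 0 at 4 days, 3 at 10 days, 5 for 10 against 4 days, 9 for 12 against 10 days and 2 at 28 days of P95H. Leaving out 1 library gave 0 to 9 members at 4 days, 5 to 40 at 10 days, 4 to 15 for 10 against 4 days, 12 to 24 for 12 against 10 days, 0 to 7 at 12 days of P95H and 1 to 18 at 28 days of P95H. In sorted knockout cells DESeq2 called 7 members, against 0 otherwise, and equal totals gave a member median of 0.26. Correlations of the deviations of same-numbered libraries ran from -0.46 to 0.84 in whole skin and from 0.056 to 0.19 in sorted cells. In each table at least 1 pair was under 0.1, so the numbers were not taken to pair the samples. With a replicate block 2 members passed at 4 days, 40 at 10 days and 19 at 28 days of P95H. Where the cause of a moved count is not its own construction, it was not tested. In the simulation at the level and spread of the sorted knockout set, changes of 2-fold were mostly missed.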
